A study of Mus musculus with 2 samples.

Results

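FOS peaks at 5 genes of the mechanosensing machinery were examined in mouse granulosa cells, which line the ovarian follicle, nurse the oocyte and respond to the ovulatory hormone signal. The genes were Yap1, Lmna, Vim, Actb and Tns1. A peak belonged to a gene if the peak table named it as the nearest gene or as the gene that holds the peak. This gave 10 of the 2374 FOS peaks. The genes were chosen by their peaks in this list, with the peak positions and scores known, so these values are described here and were not tested. Under the same assignment 8.69% of all protein-coding genes had a peak, and nothing is read from the fact that all 5 did.

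The chromatin came from wild-type female mice 25 days old. They had been primed with PMSG, a hormone preparation that makes follicles grow, before receiving hCG, which acts through the luteinizing hormone receptor. Granulosa cells were taken 3 h later by puncturing the follicles, and 1 library was made by immunoprecipitation with a FOS antibody. The series holds 1 further library from such cells whose label names no antibody, and it was not analysed here. The labels give neither an untreated group nor the number of animals behind a library. With a single library and no read counts, no value carries an error between animals and the depth is unknown.

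FOS pairs with a JUN protein to form AP-1, a transcription factor that binds DNA at short palindromic sites. YAP1 is the co-activator that the Hippo kinase cascade holds in the cytoplasm. When actin filaments are under tension YAP1 enters the nucleus and acts with the TEAD factors, which often bind close to AP-1 sites. Lamin A and C, vimentin, beta-actin and tensin form a mechanical chain from the nuclear envelope through the cytoskeleton to the sites where cells grip the matrix. In the ovary, disturbing the Hippo cascade by fragmenting the tissue promotes follicle growth.

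The sequences printed here are promoters of Lmna and Yap1, taken from RefSeq windows that reach 250 bases upstream and 50 bases downstream of each transcription start site (TSS), on build GRCm38.p6. Capitals mark any match to the 6 motifs searched on both strands. These were AP-1 (TGANTCA), the cAMP response element (CRE, TGACGTCA), the TEAD core (GGAATG), the SP1 site (GGGCGG), the E-box (CACGTG) and the CArG box of SRF, and no motif contains another. The upstream Lmna promoter is shown where it lay under a FOS peak (chr3:88503386-88503602, minus strand), and beside it the AP-1 match just outside that peak (chr3:88503303-88503323, minus strand). The downstream Lmna promoter is shown where its upstream bases lay under the other Lmna peak (chr3:88493313-88493418, minus strand). The 50 bases of that window after the TSS also lay under the peak and are not printed. The Yap1 promoter (chr9:8004597-8004846, minus strand) lay outside the Yap1 peak and is shown because it holds a TEAD core. The Vim and Tns1 windows also lay outside the peaks of their genes and held no AP-1, CRE or TEAD match, and they are not printed.
Lmna upstream promoter under the peak: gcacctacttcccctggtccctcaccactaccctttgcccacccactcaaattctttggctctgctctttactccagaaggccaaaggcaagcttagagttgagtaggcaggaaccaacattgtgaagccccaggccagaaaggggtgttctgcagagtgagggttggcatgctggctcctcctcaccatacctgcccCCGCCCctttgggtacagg
Lmna AP-1 match beside the peak: tggctgtcagTGACTCAgtgt
Lmna downstream promoter under the peak: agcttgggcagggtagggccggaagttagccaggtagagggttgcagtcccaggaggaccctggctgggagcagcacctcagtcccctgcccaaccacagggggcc
Yap1 promoter: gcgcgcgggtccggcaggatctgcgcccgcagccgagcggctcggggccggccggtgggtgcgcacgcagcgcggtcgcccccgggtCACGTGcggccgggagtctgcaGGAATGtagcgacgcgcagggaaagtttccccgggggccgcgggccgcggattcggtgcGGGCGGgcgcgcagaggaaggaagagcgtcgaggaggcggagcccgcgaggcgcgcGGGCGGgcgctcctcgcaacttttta

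Yap1 had a single FOS peak, close to its start and inside the gene. The peak lay on chromosome 9 from 8003253 to 8003626 (mm10) in intron 1 of 7, with its centre 1157 bp downstream of the TSS. Its peak score was 187, where the score is the authors' own value for each peak and runs from 13 to 2234 with a median of 67. It ranked 113 of 2374, and 4.80% of all peaks scored as high or higher. The peak ended 920 bp short of the RefSeq promoter window, so the TEAD core and the E-box printed above lay outside it. The TEAD core lay at bases -141 to -136 relative to the TSS and the E-box at bases -163 to -158. No other FOS peak lay within 100 kb of the gene, a stretch that also holds 4 other protein-coding genes.

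Lmna, which encodes the lamins A and C of the nuclear envelope, had 2 peaks, and each overlapped a RefSeq promoter window. The stronger peak (chromosome 3, 88503386 to 88503879) scored 188 and ranked 109, the best of the 10. The other (chromosome 3, 88492544 to 88493418) scored 112 and ranked 465, and its class in the peak table is intron 1 of 9. At 875 bp this second peak was the 8th widest of the 2374, where the median width was 342 bp. From edge to edge the gap between the peaks was 9.97 kb, and the 2 RefSeq start sites that have a promoter window lay 10.04 kb apart. The span of the gene runs on to 88509932, further upstream than both of these start sites, and no promoter window was available there. The wide peak covered the downstream TSS itself, and its centre was 331 bp beyond it. The centre of the stronger peak lay at -280.5 bp relative to the upstream TSS.

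The peak table lists that stronger Lmna peak as a promoter peak and yet puts it 10.3 kb from the nearest TSS. The listed distance matches the downstream start site, while the peak lies beside the upstream start site. Such a mismatch was rare: 12 of the 360 promoter peaks (3.33%) had a listed distance over 2 kb. Of the 4163 genes with at least 2 RefSeq promoter windows, 91 had a FOS peak over at least 1 of them. Lmna alone had different peaks over different windows. The windows are 300 bp long and an overlap of 1 bp was enough, and peaks that missed a window by a few bases were not counted.

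The Lmna promoters held few of the motifs searched. In the 217 bases of the upstream window under the peak there was an SP1 match, at bases -52 to -47 relative to the TSS, and no AP-1 or CRE match. An AP-1 match, TGACTCA, lay at bases 40 to 46 after the TSS, 73 bp outside the peak. The 106 upstream bases of the downstream promoter under the wide peak held none of the 6 motifs. Only the parts inside RefSeq windows could be read, so the larger part of each Lmna peak was not searched.

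Vim, which encodes vimentin, the intermediate filament protein of mesenchymal and granulosa cells, had 1 promoter peak. It lay on chromosome 2 from 13573420 to 13573842, with its centre at -680 bp relative to the TSS. The score was 177, the rank 137 and the width 423 bp. The peak stopped 218 bp short of the RefSeq promoter window, which held none of the 6 motifs. As at Yap1, no other FOS peak lay within 100 kb of the gene.

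Actb, which encodes the cytoplasmic beta-actin, had the weakest best peak of the 5 genes, and it lay outside the gene. The peak (chromosome 5, 142920800 to 142921107) was intergenic, 14.2 kb upstream of the TSS. It scored 83 and ranked 851, and 36.2% of all peaks scored as high or higher. Its surroundings held more FOS peaks than those of the other genes: 3 peaks assigned to neighbours lay within 100 kb. Of these, 2 belonged to Fscn1, which encodes the actin-bundling protein fascin. The Fscn1 promoter peak scored 51, with its centre at -122 bp relative to its own TSS, and the intronic peak scored 60. The third neighbour peak scored 74 and was assigned to Tnrc18.

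Tns1 held 5 peaks, all in its introns. The gene encodes tensin 1, which links integrins to actin filaments at fibrillar and focal adhesions. In the direction of transcription, the peak nearest the TSS was 2.16 kb into the gene in intron 1 of 34 and scored 58. The next, also in intron 1, was 28.6 kb into the gene and scored 130. A peak in intron 3 at 87.4 kb scored 51. The last peaks, in introns 6 and 7, lay at 126.1 kb and 128.0 kb and scored 134 and 44. The peaks at 28.6 kb and 126.1 kb had the highest scores of the gene, and the other 3 scored below the list median of 67. In the same order, the gaps between neighbouring peaks were 26.0, 58.4, 38.4 and 1.51 kb.

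**Figure D1:**
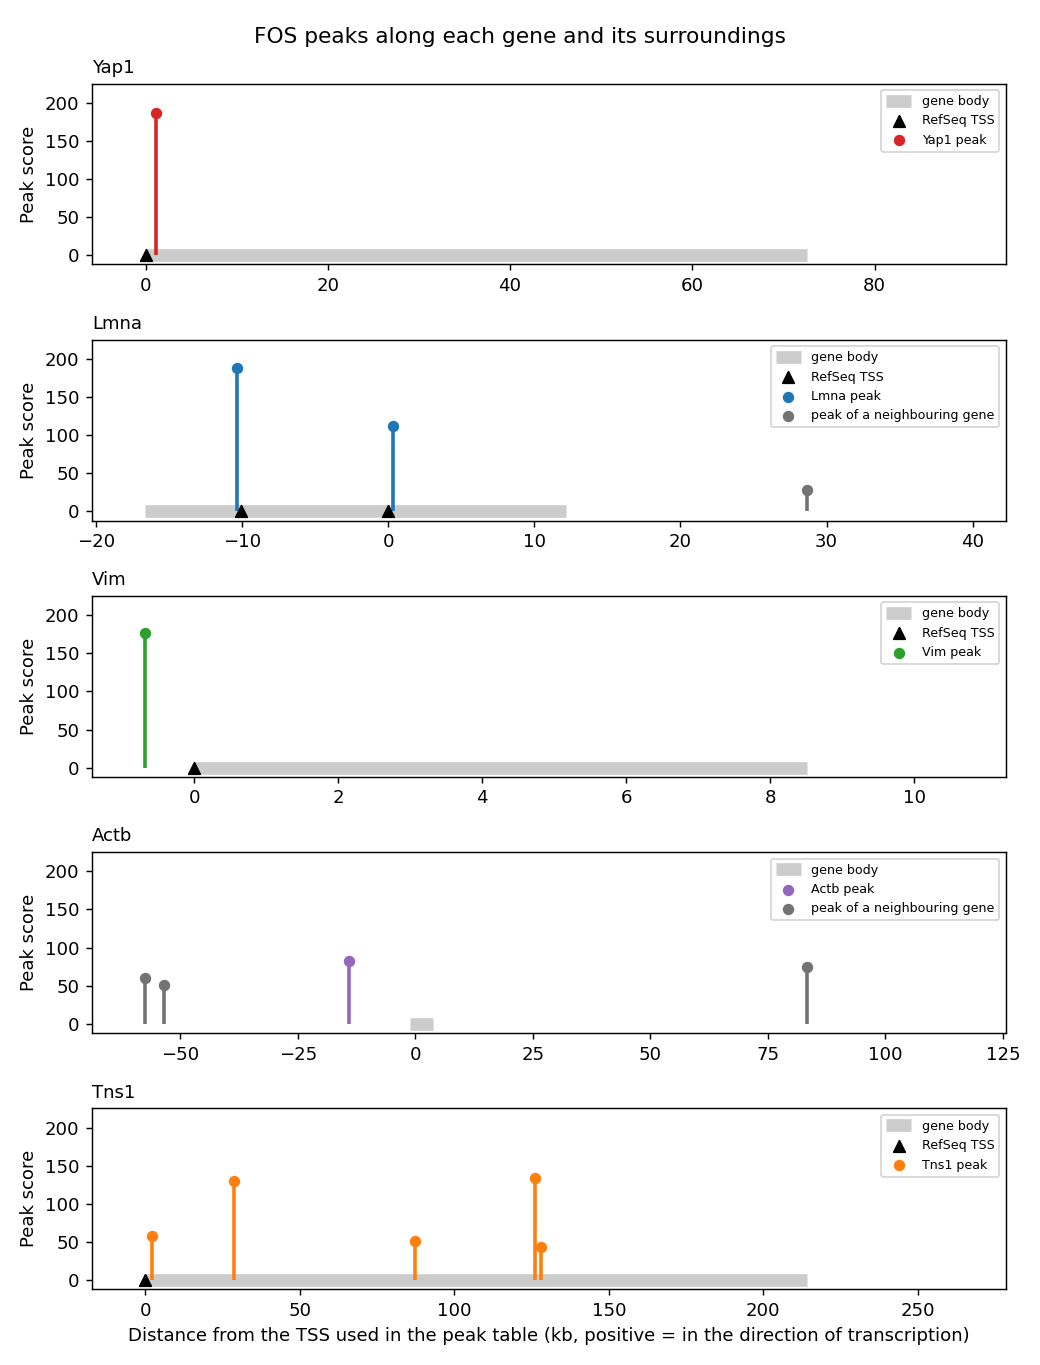
FOS peaks along Yap1, Lmna, Vim, Actb and Tns1, with the distance from the TSS used in the peak table on the x axis (kb) and the authors' peak score on the y axis. Coloured stems are the 10 peaks of the 5 genes, and grey stems are peaks assigned to neighbouring genes within 100 kb. Grey bars are gene bodies and triangles are RefSeq start sites that have a promoter window. Yap1 and Vim have a lone peak near the start, and Lmna has a peak at each start site marked here, though its gene body extends further upstream. Actb has a peak 14.2 kb upstream, and Tns1 has 5 peaks spread over its introns.

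The number of peaks at Tns1 was matched by few genes. Among all protein-coding genes, 3 had 5 peaks inside their span and none had more. The others were Aff3 and Pakap, with 1.10 and 1.08 peaks per 100 kb, against 2.33 per 100 kb for Tns1, which is 214 kb long. Of the 990 protein-coding genes at least 200 kb long, 77.9% had no peak in their span. A long gene offers more room for peaks, and the number was part of what chose Tns1.

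No peak of the 5 genes was among the 100 best of the list. Their scores ran from 44 to 188 with a median of 121, against 67 over all peaks. In all, 7 of the 10 scored at or above the list median and 6 were among the 618 peaks that scored 99 or more. The weakest was the Tns1 peak in intron 7. By best score the order was Lmna (188), Yap1 (187), Vim (177), Tns1 (134) and Actb (83). Without replicates, no difference between neighbours in this order can be set against an error, and Lmna and Yap1 are 1 score unit apart. Of the 1658 protein-coding genes with a peak, 5.55% had a best score at least as high as that of Lmna, and 40.3% at least as high as that of Actb. The widths ran from 272 to 875 bp with a median of 398.5 bp.

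**Figure D2:**
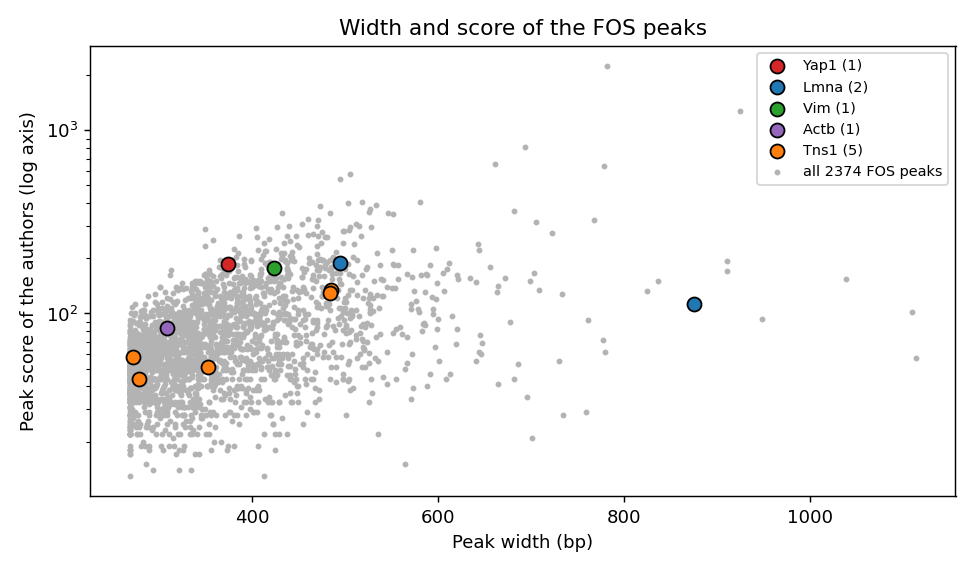
Peak width in bp (x axis) against the authors' peak score on a log axis (y axis) for the 10 peaks of the 5 genes (coloured) and all 2374 FOS peaks (grey). The peaks of Yap1 and Vim and the stronger Lmna peak score 177 to 188 at widths of 374 to 494 bp, and the other Lmna peak stands apart at 875 bp with a score of 112.

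By class, 7 of the 10 peaks were intronic, 2 were promoter peaks and 1 was intergenic. Over the whole list 44.7% of peaks were intronic, 15.2% were promoter peaks and 35.4% were intergenic. Intron 1 held 4 of the 10, at Yap1, Lmna and Tns1, and 18.3% of all peaks. Of the 7 intronic peaks 5 come from Tns1, so the class count rests largely on that gene. With the RefSeq start sites in place of the authors' class, 4 peaks had a centre within 2 kb of a TSS of their own gene: those of Yap1 and Vim and both Lmna peaks.

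Over the whole list, promoter windows under a FOS peak held AP-1 matches more often than promoter windows in general. A match was found in 108 of the 365 windows under a peak (29.6%, and such windows were 1.11% of all), against 7.81% of all 32851 windows. A window counted from 1 bp of overlap, so a match could lie outside the peak, as in the upstream Lmna window. CRE matches were in 8.22% of windows under a peak against 1.79% of all, E-boxes in 17.3% against 7.15%, SP1 sites in 60.8% against 35.7% and CArG boxes in 2.74% against 1.63%. TEAD cores were in 13.4% against 14.7%. Of the 5 windows that belong to the 5 genes, 1 (the upstream Lmna window) held an AP-1 match, 1 (Yap1) a TEAD core and an E-box, and 3 (Tns1, Yap1 and the upstream Lmna window) an SP1 site. Actb had no window. Windows under a peak were also richer in G and C, with a median of 59.2% of the 250 upstream bases against 52.4% over all windows. The Yap1 and Tns1 promoters stood at 76.4% and 74.4% and that of Vim at 58.4%. The part of base composition in the motif shares was not tested.

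**Figure D3:**
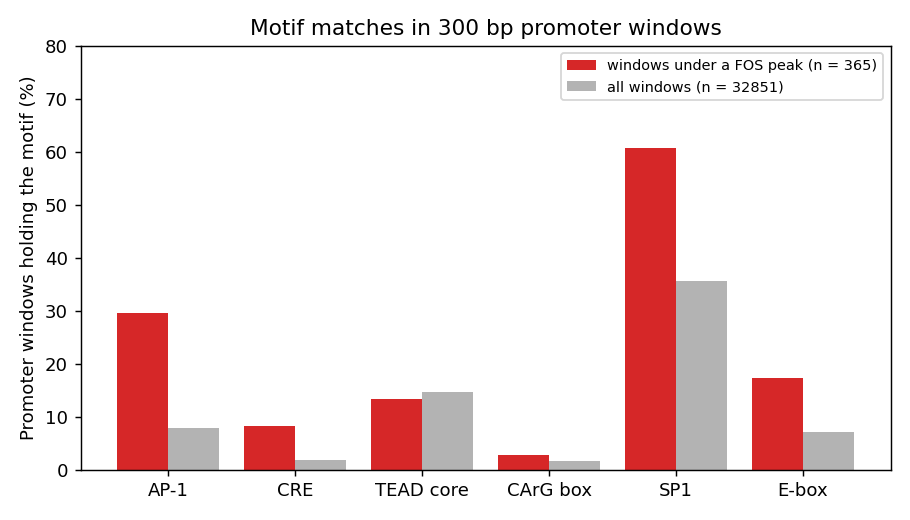
Share of 300 bp RefSeq promoter windows (y axis, %) that hold each of the 6 motifs (x axis), for the 365 windows under a FOS peak (red) and all 32851 windows (grey). AP-1 matches are in 29.6% of windows under a peak and 7.81% of all windows, while TEAD cores are in 13.4% and 14.7%. Windows counted from 1 bp of overlap, so a match can lie outside the peak.

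The remaining genes of the pathway were counted from 10 lists, which hold 166 different genes including the 5 above. A gene is called covered here where any peak had it as its nearest gene, which held for 7.58% of the 21887 protein-coding genes. In all, 42 of the 166 were covered (25.3%). The 5 genes were chosen for their peaks, and of the other 161 genes 37 were covered (23.0%, exact 95% interval 16.7 to 30.3). The counts below therefore leave the 5 genes out. The share of all protein-coding genes depended on how peaks were counted. It was 4.12% with peaks that scored at or above the median, 2.2% with the 618 best-scoring peaks, 3.48% within 10 kb of a TSS and 18.2% where a peak within 50 kb of the gene span was enough. Over the 161 genes the share was 10.6%, 6.21%, 9.94% and 36.0% under these 4 counts. The 37 genes had a median best score of 66, against 70 over all covered protein-coding genes. The lists were drawn up with earlier results of these data known, so the counts describe the lists and were not tested. Long genes and genes with wide flanks offer more room for peaks. The lists and all protein-coding genes were not matched for length or for expression, so the shares are not measures of an excess.

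At the nuclear envelope, against 7.58% of all protein-coding genes, 4 of 13 genes other than Lmna were covered (30.8%, interval 9.09 to 61.4). They included Syne2 (best score 172), Syne3 (107) and Sun1 (81), whose proteins are nesprins and a SUN protein of the LINC complex, which couples the nucleus to the cytoskeleton. Lmnb1, the gene of lamin B1, had a best score of 64, for a peak 82.9 kb from its TSS, and no peak was annotated inside the gene. The list of cytoplasmic intermediate filaments also holds a linker of filaments, Plec. Of its 13 genes other than Vim, 1 was covered (7.69%, interval 0.195 to 36.0), close to the 7.58% of all protein-coding genes. It was Plec. The Plec peak was a promoter peak of score 152, and the gene encodes plectin, which crosslinks intermediate filaments. None of the listed genes that encode a filament protein was covered, apart from Vim.

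None of the 5 actin genes other than Actb was covered, which with so few genes allows a share of up to 52.2% (upper bound of the exact 95% interval). Among actin regulators 13 of 42 were covered (31.0%, interval 17.6 to 47.1), against 7.58% of all protein-coding genes, which were not matched for length. Myl12a, a myosin regulatory light chain gene, had a promoter peak of score 204, above every peak of the 5 genes. Gsn, which encodes the filament-severing protein gelsolin, had a best score of 118, and Ezr, which encodes the membrane linker ezrin, had a best score of 107.

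Among focal adhesion genes other than Tns1, 10 of 31 were covered (32.3%, interval 16.7 to 51.4), against 7.58% of all protein-coding genes. These too were not matched for length. Itgav (integrin alpha V) had the highest score at 151, above the 134 of Tns1, followed by Fermt2 (kindlin 2) at 114 and Nedd9, a docking protein of integrin signalling, at 113. Tns3 had a single peak of score 51, and Tns2 and Tns4 were not covered.

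In the Hippo cascade itself 1 of 23 kinases and regulators was covered (4.35%, interval 0.110 to 21.9), and the interval holds the 7.58% of all protein-coding genes. It was Nf2, which encodes the upstream regulator merlin, with an intronic peak of score 51. Of the 5 TAZ and TEAD genes 1 was covered, Tead1, with a peak score of 52. Of 22 known YAP and TAZ target genes 5 were covered (22.7%, interval 7.82 to 45.4). The highest scores among the targets were at Asap1 (79), F3, the tissue factor gene (76), and Myof (66). Ccn2, which encodes the classical target CTGF, had a peak of score 28 between genes, 41.1 kb upstream of its TSS. Of SRF and its MRTF and myocardin cofactors, 1 of 4 was covered, Myocd (107). Of the mechanosensitive channel and caveola genes, 1 of 6 was covered, Piezo2 (44), by a peak between genes, 76.5 kb upstream of its TSS.

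**Figure D4:**
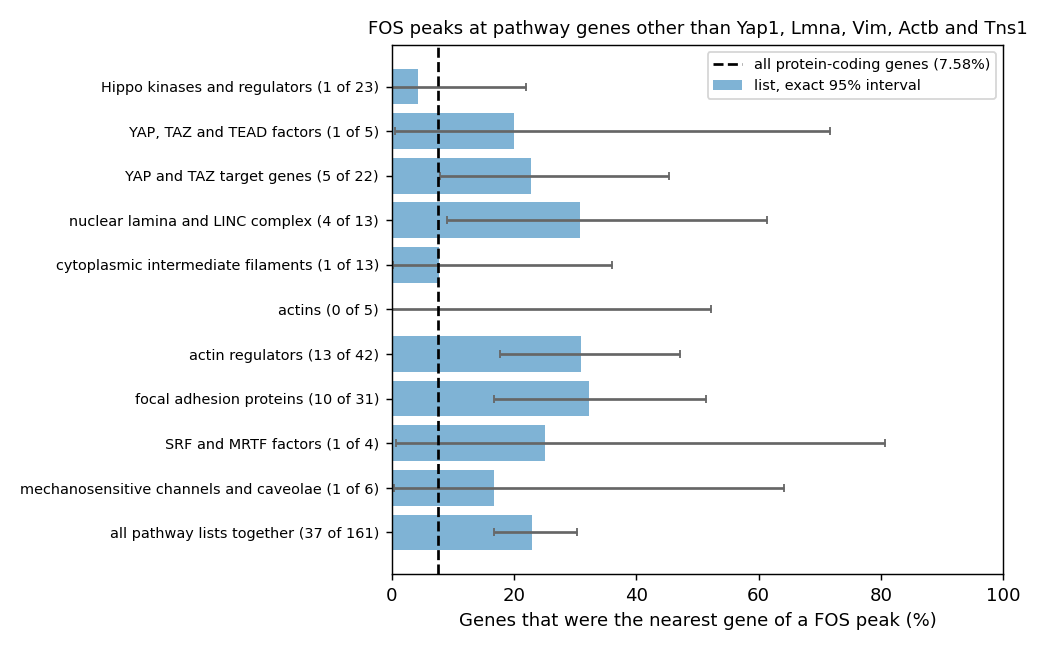
Share of each gene list covered by a FOS peak (x axis, %), with Yap1, Lmna, Vim, Actb and Tns1 left out, and with exact 95% intervals that cover counting error only and the number of genes beside each name. The dashed line is the 7.58% of all protein-coding genes, which were not matched to the lists for gene length. The shares run from 0 of 5 actin genes to 32.3% of focal adhesion genes.

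The genes most like each of the 5 were those whose best peak had the same class and the closest score, over this 1 library. For Yap1 they were Serpinb9b (188) and Tmbim6 (186), both with intronic peaks. For Lmna they were Rap2a (189) and Ppp1r11 (190), and for Vim they were Zkscan1 and Slc25a45 (185 each), all with promoter peaks. For Actb they were Defb23 (83) and Sox30 (82), and for Tns1 they were Sh3bp2 and Myo10 (134 each).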

How the data were processed

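The authors deposited 1 annotated list of narrow peaks from the FOS library, made with the annotatePeaks program of HOMER per the file headers. The build was mm10 and the tools were BWA, Trim Galore, deepTools 3.5.1 and MACS2 2.2.7.1, per the submitters' processing notes. For the peak threshold and the control library, nothing is stated in the labels or headers. The deposited peak score is a whole number whose scale is not stated, and it was used only to rank and describe peaks. The other deposited values were positions and distances to the TSS in bp. Fixation was with formaldehyde and shearing by sonication, per the labels' protocols.

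RefSeq's genes of GRCm38.p6 (the assembly of mm10) were joined to the names by accession, symbol or older symbol, and all 1965 names matched. Motifs were searched in 32851 RefSeq promoter windows of that build, and 4 of the 5 genes had a window. The motif search found every motif planted in simulated sequences that were otherwise made of A and T only. False matches were not tested. Peaks themselves were not searched, because no genome sequence was used here. Intervals are exact Clopper-Pearson and cover counting error only. The genes and lists were chosen with earlier results of these data known. The text names every peak of the 5 genes, up to 3 other genes with the highest score per list, and 2 like genes for each of the 5. Fscn1, Tnrc18, Lmnb1, Tns2, Tns3, Tns4, Ccn2, Aff3, Pakap and the genes that gained a peak through their host were named after their values were seen. Other score and distance limits, other ways to assign peaks to genes and other promoter definitions were tried. Python 3.11.15, numpy 2.4.6, scipy 1.17.1, pandas 2.3.3 and matplotlib 3.10.9 were used.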

Additional observations from a re-analysis of the deposited data

How the results depend on the processing

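Of the 10 peaks, 7 remained at or above the median score, 6 at a score of 99 or more, 4 within 10 kb of the listed TSS, 10 with the nearest gene alone and 9 with the host gene alone, since the Actb peak lies in no gene. The promoter count was 2 by the authors' class, 3 by listed distances under 2 kb and 4 by RefSeq start sites, the last chosen after seeing the data. Sharing the worst rank among ties moved no rank by more than 87 places. With the 5 genes included, the 166 pathway genes stood at 13.3% from the median score up, 8.43% from a score of 99 up, 12.0% within 10 kb of a TSS and 38.0% within 50 kb of a peak, where all protein-coding genes stood at 4.12%, 2.2%, 3.48% and 18.2%. Actin regulators stood at 14.3%, 7.14%, 11.9% and 57.1% under these 4 counts. Focal adhesion genes stood at 15.6% from the median score up and 12.5% from a score of 99 up. The share was 0 for Hippo kinases and regulators and for mechanosensitive channels and caveolae from the median score up, from a score of 99 up and within 10 kb of a TSS. It was 0 for actins from a score of 99 up and within 10 kb, and 0 for YAP and TAZ targets from a score of 99 up. The other 36 of 55 list values stayed inside the interval of the main value. The motif search in the central part of each peak was not run. No paired analysis was possible because only 1 library has values. The depth is unknown, so what it limits could not be measured.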

Other observations

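Counting a peak for the gene that holds it, as well as for the nearest gene, added 3 actin regulators and 1 focal adhesion gene. Actin regulators then stood at 16 of 42 and focal adhesion genes other than Tns1 at 11 of 31. The share of all protein-coding genes also rose, from 7.58% to 8.69%. Lpp, which encodes a zyxin-related LIM protein of focal adhesions, held 3 peaks with a best score of 60, all assigned to other genes. Wasl, the gene of the actin nucleation factor N-WASP, held a peak of score 79. Myh9, the gene of a nonmuscle myosin heavy chain, held a peak of score 49, and Cald1, the caldesmon gene, held a peak of score 44.

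Peaks do not measure expression, so the cell type label could be set only against the genes that peaks lie nearest to. Of 8 granulosa marker genes 4 were covered, namely Cyp19a1, Inhba, Nr5a2 and Lhcgr, with best scores of 64, 91, 81 and 31, where 7.58% of all protein-coding genes were covered. The best-scoring peak of each lay far from its start site, at 29.3, 724, 278 and 72.7 kb. Inhba had 3 peaks and Nr5a2 had 4, and each of these genes also held 1 peak, of score 69 and 29. Within 10 kb of a TSS 1 of the 8 had a peak, against 3.48% of all protein-coding genes. With peaks that scored 99 or more 0 of the 8 did, against 2.2%. Of the 4 theca markers Cyp17a1 was covered (57). None of the 4 endothelial, 4 immune and 4 oocyte markers was covered, although Cdh5 and Itgam each held a peak assigned to another gene. With so few genes, the exact interval reached up to 60.2% for each of these lists. For the granulosa markers it ran from 15.7 to 84.3%. Where a peak within 50 kb of the gene span was enough, 18.2% of all protein-coding genes were reached, and 1 of 4 in each of these lists. The granulosa markers then stood at 5 of 8. The lists are too short for these counts to decide the cell type.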
